A study of Mus musculus with 24 samples.

Results

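Cultured mouse myotubes that had received aldosterone were compared with vehicle-treated myotubes of the same C57 strain, gene by gene, by bulk RNA sequencing. Of the 24 libraries of the series, the 6 that come from C57 myotubes were taken by their labels: 3 aldosterone cultures and 3 vehicle cultures, numbered 1 to 3 in each group. The aldosterone cultures received the hormone at 1 µM for 48 h, and the vehicle cultures received DMSO at 0.001% by volume over the same time, both in medium whose horse serum had been stripped of steroids with charcoal. All 6 cultures then spent 15 h in new medium without hormone before lysis, so the values describe RNA after this washout, not at the end of the hormone exposure. The cells were C57BL/10 myotubes formed in culture from primary hindlimb myoblasts of mice younger than 5 days. As primary cultures, the wells can hold other cells of the muscle beside myotubes. The labels call the samples biological replicates but do not say whether the numbers mark separate animals or preparations. With same-numbered cultures taken as pairs, p-values measure the spread of the change between pairs, whatever its source. That spread is estimated together with the mdx myotubes of the series, described below.

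Aldosterone is the adrenal mineralocorticoid hormone that drives sodium retention in the kidney. It binds the mineralocorticoid receptor, encoded by Nr3c2, and at high concentration also the glucocorticoid receptor, encoded by Nr3c1. Both receptors enter the nucleus with hormone and bind the same palindromic DNA element. Myotubes are multinucleate muscle cells formed by fusion of myoblasts; in culture they express embryonic and neonatal myosins and have no nerve contact.

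The 6 libraries held 14578755 to 31144746 counts, and 6.04% to 9.86% of the counts came from mitochondrial genes. Levels below are CPM, the count relative to the TMM-scaled library size. Myotube markers were abundant in every library: the 12 genes summed to between 39060 and 47455 CPM and none was at 0 in any library. RNA of other cell types was present too. Fibroblast markers summed to 511, 785 and 876 CPM in aldosterone cultures 1, 2 and 3, against 419, 1075 and 797 CPM in vehicle cultures 1, 2 and 3. Macrophage and leukocyte markers summed to 14.7, 417 and 236 CPM with aldosterone, against 15.5, 522 and 305 CPM with vehicle. Culture 1 therefore stood apart from cultures 2 and 3 in both groups for leukocyte RNA. Of the 15 leukocyte markers, 14 had a change below 0 with aldosterone and 1 passed the test (Tyrobp, adapter protein of myeloid receptors, adjusted p = 0.0378 in edgeR, but 0.178 without culture 2 and 0.362 without culture 3). In bulk RNA, fewer cells of a type and less RNA per cell cannot be told apart. Over the 6 libraries, pericyte and smooth muscle markers summed to 1188 to 1420 CPM, most of it Acta2. Schwann cell markers summed to 100 to 164 CPM. Endothelial markers summed to 107, 232 and 147 CPM with aldosterone, against 81.3, 174 and 135 CPM with vehicle, higher in each pair. Of the 9 endothelial markers tested, 3 had a change above 0 and 0 passed the test. Myoblast and satellite cell markers summed to 5048 to 5552 CPM, most of it Des, which is also on the myotube list. Of these 9 tested myoblast markers, 2 were called higher and 1 lower (33.3%, beside 4.98% of all genes tested). Red blood cell markers were at or near 0.

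Aldosterone changed 785 of the 15763 genes tested, 4.98%, at an adjusted p below 0.05 when same-numbered cultures were taken as pairs. Of these, 397 (2.52%) were higher with aldosterone and 388 (2.46%) were lower. With the cultures unpaired, 2 genes passed (0.0127%), both of them among the 785: Fos and an unnamed gene, ENSMUSG00000120700. The call of nearly every gene below therefore rests on the pairing, and 783 genes had an unadjusted p below 0.05 in the unpaired fit, against 2765 in the paired one. All adjusted p-values below are from edgeR's quasi-likelihood test of the paired cultures with Benjamini-Hochberg adjustment over all genes tested, unless another fit is named. All 397 higher genes were higher in 3 of 3 pairs, and 385 of the 388 lower genes were lower in 3 of 3. The genes were chosen by a test of these same pairs, so this agreement follows largely from the choice. The 3 libraries of each treatment did not overlap for 284 of the higher and 322 of the lower genes. Over all genes tested, 14.5% did not overlap.

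Most of these changes were small. The median log2 change was 0.32 among the higher genes (1.25-fold) and -0.41 among the lower genes (0.754-fold), beside 0.01 over all genes tested. A fold of at least 1.5 was reached by 73 higher and 110 lower genes, and a fold of at least 2 by 33 and 36. Abundant genes were called more often: 0.765% of genes below 1 CPM passed, and 10.6% of genes at 100 CPM or more. Protein-coding genes divided about evenly, 382 higher and 355 lower. Long non-coding RNAs did not: 7 were called higher and 29 lower, of 1225 tested. Scaling by library totals alone in place of TMM moved the division between the directions to 197 higher and 501 lower, with a median over all genes of -0.04. Leaving out culture 1, 2 or 3 gave 438, 857 or 401 calls. In all, 227 genes were called in the fit of 3 cultures and in each fit of 2.

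**Figure D1:**
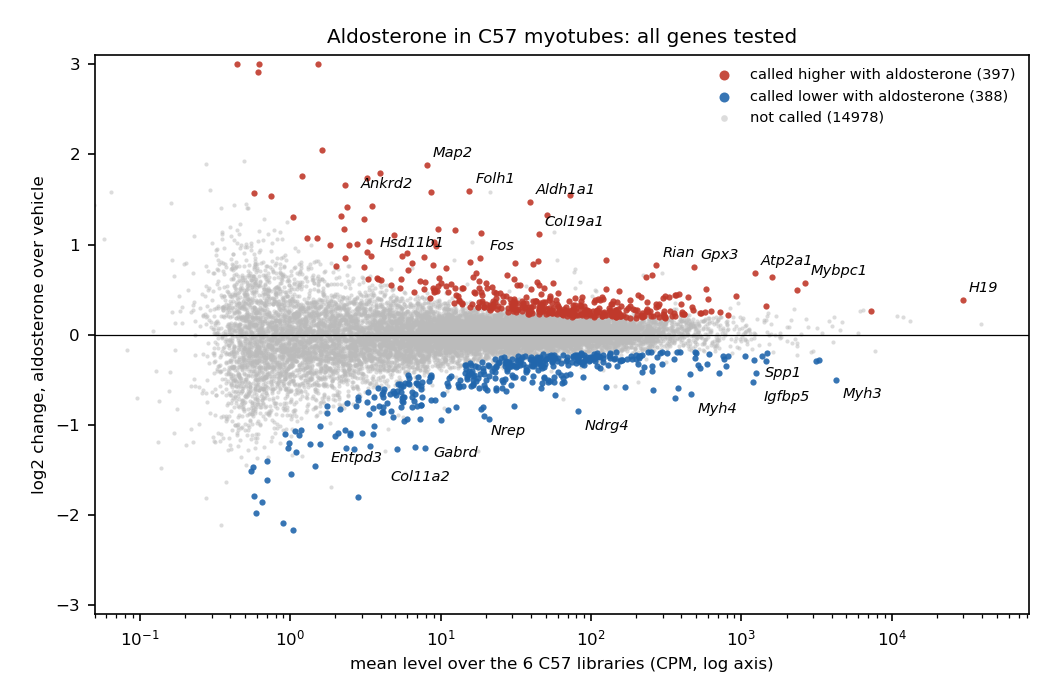
Log2 change of each of the 15763 genes (aldosterone over vehicle, C57 myotubes) against its mean level over the 6 libraries in CPM on a log axis. Red and blue points are the 397 higher and 388 lower genes; the 3 genes beyond a log2 change of 3 are drawn at the edge. Large changes sit at low levels, and changes above 100 CPM are mostly small.

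Among protein-coding genes at 5 CPM or more, the largest increases were in genes of unrelated function. Map2, a microtubule-associated protein, was at 8.91, 13.5 and 15.7 CPM in aldosterone cultures 1, 2 and 3, against 2.31, 3.79 and 4.23 CPM in vehicle cultures 1, 2 and 3. The groups did not overlap, and the log2 change was 1.88 ± 0.13 (standard error, 3 pairs; adjusted p = 2.73e-09). Folh1, the glutamate carboxypeptidase also known as prostate-specific membrane antigen, had the smallest adjusted p of all genes tested. It was at 7.11, 23.9 and 38.6 CPM with aldosterone and at 2.18, 7.91 and 13.2 CPM with vehicle. The cultures themselves differed widely and the groups overlapped, yet each pair rose by a similar factor (log2 change 1.59 ± 0.10, adjusted p = 5.97e-10). Ankrd2, a stretch-responsive ankyrin repeat protein of muscle, was at 9.66, 14.3 and 15.2 CPM against 3.57, 4.72 and 4.64 CPM (log2 change 1.58 ± 0.15, adjusted p = 6.97e-07). Aldh1a1, a retinaldehyde dehydrogenase, was at 50.3, 66.6 and 55.5 CPM with aldosterone and 15.5, 22.3 and 25.4 CPM with vehicle, again without overlap (log2 change 1.47 ± 0.12, adjusted p = 5.42e-05). The keratin gene Krt80 rose by 1.18 on the log2 scale.

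The promoter window of Folh1 holds a match to the palindromic steroid receptor element, searched by name in a relaxed form on both strands. Its window, 250 bases before to 50 after the start in RefSeq on GRCm38.p6 (chr7:86775815-86776114, minus strand), is shown 5′ to 3′ with the match in capitals.
Folh1: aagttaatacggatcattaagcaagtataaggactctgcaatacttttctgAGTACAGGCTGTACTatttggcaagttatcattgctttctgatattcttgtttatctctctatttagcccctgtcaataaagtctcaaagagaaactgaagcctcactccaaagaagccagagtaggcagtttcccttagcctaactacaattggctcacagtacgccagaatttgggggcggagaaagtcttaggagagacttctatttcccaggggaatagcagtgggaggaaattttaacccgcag
Among genes tested with a window, 42 of 11208 (0.375%) held such a match, as did 2 of 309 called higher and 0 of 262 called lower. The match is a description of these letters and not a measured binding site.

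A further 4 genes among the 12 largest increases lost their call when a culture was left out. Col11a1, a fibrillar collagen chain, was at 56.6, 121 and 142 CPM with aldosterone and 14.8, 58.8 and 40.97 CPM with vehicle (log2 change 1.55 ± 0.23, adjusted p = 0.0401). Without culture 1 its adjusted p was 0.154, and without culture 3 it was 0.165. Clca3a1, a chloride channel accessory protein, changed by 1.33 (adjusted p = 0.00627, and 0.0608 without culture 3). Prl3a1, of the prolactin family, changed by 1.79 (adjusted p = 0.00952, 0.0754 without culture 1 and 0.0555 without culture 2). Art3, of the ADP-ribosyltransferase family, changed by 1.43 (adjusted p = 0.00203, and 0.0516 without culture 2).

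The 12 largest decreases were also in genes of unrelated function, mostly at low level. Entpd3, an ectonucleotidase, was at 2.70, 3.04 and 3.26 CPM in the aldosterone cultures, against 7.92, 7.36 and 6.49 CPM in the vehicle cultures (log2 change -1.27 ± 0.17, adjusted p = 2.68e-05). Gabrd, the delta subunit of the GABA-A receptor, was at 5.06, 4.40 and 4.48 CPM against 11.02, 11.3 and 11.1 CPM (log2 change -1.26 ± 0.13, adjusted p = 7.76e-07). The groups of both genes were far apart, with every aldosterone value under 6 CPM and every vehicle value above it. Col11a2, another fibrillar collagen chain, moved opposite to Col11a1, at 4.02 ± 0.904 CPM with aldosterone and 9.52 ± 1.47 CPM with vehicle (SD, n = 3 each; log2 change -1.25 ± 0.15, adjusted p = 1.16e-05 in edgeR). Nrep, a neuronal regeneration-related protein, fell by 0.91 on the log2 scale (adjusted p = 3.68e-07). Ndrg4, of the N-myc downstream-regulated family, was the most abundant of the 12, at 69.5, 46.3 and 61.3 CPM with aldosterone and 111, 100.3 and 103 CPM with vehicle. Mfsd7a, Cd300c, Chst13 and Kcne1l fell with no overlap between groups, with log2 changes of -0.93, -0.94, -0.84 and -0.86. The tight-junction gene Cldn2 and the gene Vstm2b were called (log2 changes -0.95 and -0.92) but not without culture 1 (adjusted p = 0.0607 and 0.153). Pygl, the liver glycogen phosphorylase, was called (log2 change -0.86) but not without culture 3 (adjusted p = 0.0607).

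**Figure D2:**
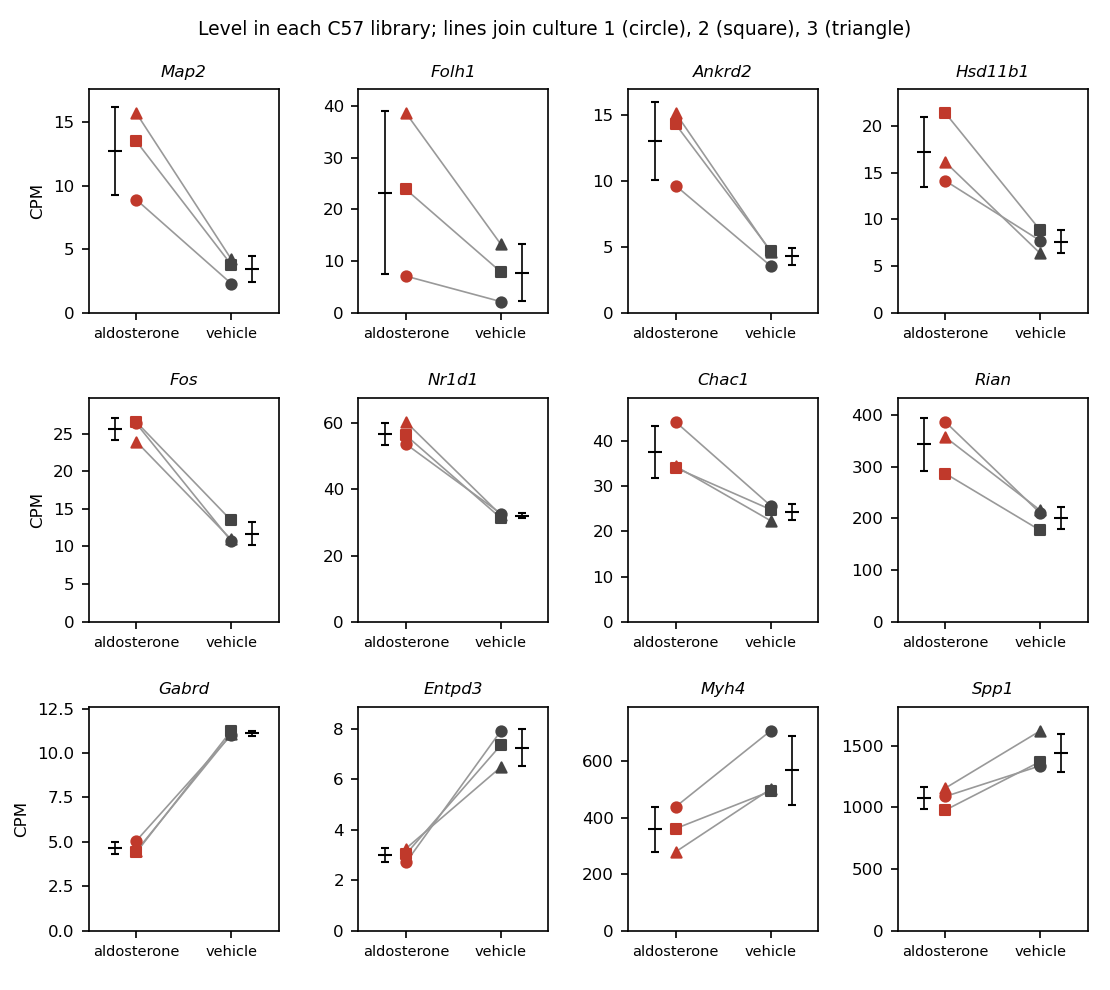
CPM of 12 genes in each C57 library, aldosterone left and vehicle right, with lines joining same-numbered cultures and bars giving mean ± SD of 3 libraries. Every line of the upper 8 genes falls toward vehicle, and every line of Gabrd, Entpd3, Myh4 and Spp1 climbs toward vehicle.

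The receptors themselves were not called. Nr3c2 was scarce, at 3.25, 3.22 and 3.17 CPM with aldosterone and 5.70, 3.60 and 4.71 CPM with vehicle. All 3 aldosterone values lay below all 3 vehicle values, but the change missed the threshold (log2 change -0.51 ± 0.17, adjusted p = 0.0979, and 0.0405 without culture 2). Nr3c1 was at 71.00, 78.99 and 78.6 CPM with aldosterone and 71.7, 80.3 and 83.6 CPM with vehicle (log2 change -0.04 ± 0.07, adjusted p = 0.813). Per gene length, in the deposited FPKM, Nr3c1 averaged 10.6 and Nr3c2 0.533 with aldosterone, a ratio of 19.96. With vehicle they averaged 11.01 and 0.778, a ratio of 14.1. Hsd11b2, the enzyme that inactivates glucocorticoids in aldosterone target cells, had too few counts to be tested. Of 22 tested genes for steroid receptors and hormone handling, 4 rose and 0 fell (18.2% called, beside 4.98% of all genes, median log2 change 0.05). Hsd11b1, which regenerates active glucocorticoid from its inactive form, rose most: 14.1, 21.4 and 16.1 CPM with aldosterone, against 7.71, 8.83 and 6.35 CPM with vehicle. The groups were well apart (log2 change 1.16 ± 0.14, adjusted p = 6.79e-05). The receptor chaperone gene Hsp90aa1 and the drug transporter gene Abcb1b rose by 0.30 and 0.51. The co-chaperone gene Ptges3 was called at 0.25 (adjusted p = 0.0117), but not without culture 3 (adjusted p = 0.163).

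Of 33 tested corticosteroid target genes, 5 rose and 0 fell (15.2% called, beside 4.98% of all genes). The list's median change was 0.02 (-0.03 under library totals alone). Library totals alone called 1 of them lower, the fit without culture 1 called 2 lower and that without culture 2 called 1 lower. Gpx3, the secreted glutathione peroxidase, was at 620.2, 630.2 and 573 CPM with aldosterone and 397, 348 and 343 CPM with vehicle, with a wide gap between the groups (log2 change 0.75 ± 0.06, adjusted p = 3.66e-08). Per1, a clock repressor with a well-known glucocorticoid response, was at 41.96, 33.2 and 39.6 CPM against 27.4, 25.9 and 24.2 CPM (log2 change 0.55 ± 0.08, adjusted p = 1.06e-04). Fkbp5, the immunophilin that damps receptor signalling, was at 24.3, 24.3 and 23.3 CPM against 15.2, 16.9 and 16.3 CPM (log2 change 0.57 ± 0.09, adjusted p = 2.43e-04). Both genes moved without overlap, by about the same amount. Lcn2, lipocalin 2, was at 0.250, 2.22 and 1.27 CPM with aldosterone and at 0 in all 3 vehicle libraries. Set against a floor of 3 counts per vehicle library, its mean was at least 8.67-fold higher (adjusted p = 1.06e-05). Glul, glutamine synthetase, also rose, by 0.27 (adjusted p = 0.00417; named after its value was seen). The classical targets Sgk1 and Tsc22d3 did not pass. Sgk1, a kinase that acts on sodium channels in the kidney, was at 25.7, 33.3 and 28.9 CPM with aldosterone and 18.2, 31.1 and 26.6 CPM with vehicle, with overlap (log2 change 0.23 ± 0.16, adjusted p = 0.544). Tsc22d3, also known as GILZ, was at 58.6, 47.9 and 46.3 CPM against 47.2, 42.4 and 40.8 CPM (log2 change 0.22 ± 0.07, adjusted p = 0.0747).

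Among 30 tested genes of sodium and potassium transport, 2 rose and 1 fell (10% called, beside 4.98% of all genes, median -0.02). The fit without culture 3 called 0 of the list higher and 0 lower. The sodium pump subunit gene Atp1b1 changed by 0.27 (adjusted p = 0.00623). The potassium channel gene Kcnn3 changed by -0.25 (adjusted p = 0.0180). Neither gene was called without culture 3 (adjusted p = 0.0553 and 0.129), nor Kcnn3 without culture 2 (0.0555).

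Of 22 tested genes of the circadian clock, 7 rose and 1 fell (36.4% called). The 7 are mostly repressors and outputs of the clock, and 7 were called higher also without culture 1, 2 or 3. Nr1d1, the nuclear receptor REV-ERB alpha, was at 53.7, 56.3 and 60.4 CPM in the aldosterone cultures, against 32.7, 31.3 and 32.2 CPM in the vehicle cultures. The spread within each group was small beside this gap (log2 change 0.82 ± 0.07, adjusted p = 3.47e-08). Dbp, an output transcription factor, was at 34.2, 32.9 and 35.5 CPM against 21.8, 21.3 and 21.5 CPM (log2 change 0.66 ± 0.08, adjusted p = 6.09e-06). Nr1d2, the paralog of Nr1d1, was at 98.3, 105 and 95.2 CPM against 81.5, 74.02 and 68.4 CPM (log2 change 0.42 ± 0.06, adjusted p = 1.03e-04). Per1, given above, is the other named member. Ciart, a repressor of the clock, and Bhlhe40, another repressor, rose by 1.11 and 0.40, and stayed called without any culture. Nfil3, a repressor of the genes that Dbp activates, was the lower one (-0.36, adjusted p = 0.00428; 0.0517 without culture 3). These 3 were named after their values were seen. The core activators were not called: Arntl, also called Bmal1, had a log2 change of -0.39 (adjusted p = 0.0867) and Clock one of -0.08 (adjusted p = 0.577). The list's median was 0.03, and -0.02 under library totals alone.

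Immediate early genes, transcription factors induced within minutes by growth signals, were among the most often called. Of 28, 10 rose and 1 fell (39.3% called, beside 4.98% of all genes), with a median of 0.26 and 25 above 0. Fos was at 26.3, 26.5 and 23.9 CPM with aldosterone and 10.7, 13.5 and 10.9 CPM with vehicle, with little spread within either group (log2 change 1.13 ± 0.10, adjusted p = 2.11e-07). Fos was 1 of the 2 genes that also passed without the pairing. Egr1 was at 284, 264 and 298 CPM against 176, 178 and 189.8 CPM, with no overlap (log2 change 0.64 ± 0.07, adjusted p = 2.49e-05). Ier2 was at 55.98, 49.6 and 51.3 CPM against 25.95, 34.1 and 31.2 CPM (log2 change 0.78 ± 0.10, adjusted p = 2.15e-04), and Maff rose by 0.45. Junb and Klf6, both named after their values were seen, rose by 0.51 and 0.39 and kept the call without any culture. Egr3, paralog of Egr1, was the lower one (-0.25, adjusted p = 0.0179; 0.186 without culture 1 and 0.0524 without culture 2). The count was 6 higher without culture 1, 11 without culture 2, 7 without culture 3 and 7 under library totals alone. Of 18 feedback regulators of the ERK kinase pathway, 4 were called higher and 0 lower (22.2% called, beside 4.98% of all genes, median 0.12). They were Spry2 (0.37 ± 0.07, adjusted p = 0.00296), the phosphatase genes Dusp5 (0.36 ± 0.10, 0.0294) and Dusp6 (0.24 ± 0.06, 0.0247), and Dusp4 (0.21 ± 0.06, 0.0492). Without culture 3 none of the 4 was called (adjusted p = 0.0667, 0.177, 0.0673 and 0.124), and without culture 1 Spry2 was (adjusted p = 0.0498) and the other 3 were not (0.301, 0.387 and 0.469). Library totals alone called 1 of the list.

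The integrated stress response is the programme in which phosphorylation of the initiation factor eIF2 slows translation and raises the transcription factor ATF4, which switches on amino acid synthesis, amino acid import and tRNA charging. Of 36 tested genes of this programme 16 rose and 0 fell (44.4% called, median 0.23, 34 above 0). Chac1, a glutathione-degrading enzyme, was at 44.2, 34.02 and 34.4 CPM in the aldosterone cultures, against 25.6, 24.8 and 22.3 CPM in the vehicle cultures (log2 change 0.62 ± 0.08, adjusted p = 2.22e-05). Trib3, a pseudokinase that restrains ATF4, was at 85.7, 60.7 and 54.96 CPM against 53.95, 40.5 and 40.2 CPM (log2 change 0.57 ± 0.07, adjusted p = 1.36e-05). Asns, asparagine synthetase, was at 217, 222 and 183 CPM against 162, 158 and 154 CPM (log2 change 0.39 ± 0.06, adjusted p = 2.54e-04). In all 3 genes each aldosterone library was above each vehicle library. Phgdh, which starts serine synthesis, was at 179, 165 and 158 CPM against 129, 131 and 131 CPM (log2 change 0.36 ± 0.06, adjusted p = 2.87e-04). Atf4 itself rose by 0.34 (adjusted p = 4.31e-04), as did Ddit3, the transcription factor CHOP, by 0.38, and Mthfd2, of mitochondrial folate metabolism, by 0.37. These 3 were named after their values were seen and kept the call without any culture. The stress hormones of this programme were not called: Fgf21 had a log2 change of 0.17 and Gdf15 one of 0.21 (adjusted p = 0.172 and 0.205). The count of higher members was 9 without culture 1 (with 1 lower), 19 without culture 2, 10 without culture 3 and 11 under library totals alone.

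Cytosolic aminoacyl-tRNA synthetases, which load amino acids onto tRNAs, were called for 11 of 19 members, all higher (57.9%, median 0.21, 18 above 0). This was the highest share of the 32 pathway lists with all 3 cultures under TMM or RLE scaling. It was not the highest under library totals alone, with the C57 libraries alone or without any 1 of the cultures. Each change was small. Iars, for isoleucine, was at 219, 198 and 191 CPM with aldosterone and 179, 148 and 159.7 CPM with vehicle (log2 change 0.32 ± 0.06, adjusted p = 0.00100). Gars, for glycine, was at 327, 326 and 274 CPM against 266, 242 and 236 CPM (log2 change 0.31 ± 0.06, adjusted p = 0.00106). Neither gene overlapped between groups, and both stayed called without any culture. Cars and Aars, for cysteine and alanine, changed by 0.28 and 0.26 (adjusted p = 0.00592 and 0.00771) but not past the threshold without culture 1 (adjusted p = 0.0952 and 0.145), nor did Aars without culture 3 (adjusted p = 0.0638). The count of the list depended on the processing more than its direction: 3 under library totals alone, 5 with the 6 C57 libraries alone, and 3, 8 or 5 without culture 1, 2 or 3, with 0 lower each time and medians from 0.16 to 0.22. In mdx myotubes edgeR called 0 of the 19 (smallest adjusted p = 0.341), with a median of 0.08. None of them passed the test of the difference between genotypes (smallest adjusted p = 0.719).

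The CEBP-ATF response element, which ATF4 binds with a CEBP partner, was searched as TGATGNAAN on both strands. It was in the windows of 10 of the 21 genes of these lists that were called higher and had a window (47.6%). It was in 21 of 309 windows of all genes called higher (6.80%), in 2 of 262 of genes called lower (0.763%), and in 245 of 11208 of all genes tested (2.19%). Several members of these lists are known as ATF4 targets, so the share is not independent of how the lists were written. The windows of Chac1 (chr2:119350992-119351291, plus strand), Trib3 (chr2:152344011-152344310, minus strand), Asns (chr6:7693160-7693459, minus strand) and Aars (chr8:111033592-111033891, plus strand), from RefSeq on GRCm38.p6, are shown 5′ to 3′ to let the element be seen in its place. Capitals mark the element, in either orientation, and in Aars also the E-box CACGTG upstream of both copies.
Chac1: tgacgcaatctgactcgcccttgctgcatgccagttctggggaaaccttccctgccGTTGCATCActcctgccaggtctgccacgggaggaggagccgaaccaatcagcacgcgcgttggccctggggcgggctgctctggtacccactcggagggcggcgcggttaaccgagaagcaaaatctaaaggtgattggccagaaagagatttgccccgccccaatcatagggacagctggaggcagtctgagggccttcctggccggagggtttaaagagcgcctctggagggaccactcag
Trib3: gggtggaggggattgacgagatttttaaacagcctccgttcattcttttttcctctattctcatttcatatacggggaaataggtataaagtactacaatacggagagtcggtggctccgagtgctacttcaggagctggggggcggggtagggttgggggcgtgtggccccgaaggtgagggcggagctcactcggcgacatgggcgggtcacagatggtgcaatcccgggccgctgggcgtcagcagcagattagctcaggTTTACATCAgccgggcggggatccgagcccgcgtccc
Asns: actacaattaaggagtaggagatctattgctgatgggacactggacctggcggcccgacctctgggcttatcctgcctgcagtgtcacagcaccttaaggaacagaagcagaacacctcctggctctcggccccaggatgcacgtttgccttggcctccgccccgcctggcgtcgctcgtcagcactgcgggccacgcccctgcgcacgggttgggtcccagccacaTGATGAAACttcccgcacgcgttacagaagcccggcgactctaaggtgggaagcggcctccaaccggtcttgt
Aars: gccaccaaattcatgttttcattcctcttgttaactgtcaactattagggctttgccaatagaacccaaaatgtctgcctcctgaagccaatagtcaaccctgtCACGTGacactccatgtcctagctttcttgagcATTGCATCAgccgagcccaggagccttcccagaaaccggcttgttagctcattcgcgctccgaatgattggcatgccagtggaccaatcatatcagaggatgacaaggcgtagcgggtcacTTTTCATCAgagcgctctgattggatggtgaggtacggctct
The element lay upstream of the start in Chac1 and Asns, downstream of it in Trib3, and on both sides in Aars. The other motifs searched showed smaller contrasts. The steroid receptor hexamer AGAACA was in 13.6% of windows of higher genes, 10.7% of lower genes and 12.3% of all genes tested. The AP-1 site TGANTCA was in 8.41%, 4.96% and 5.26% in the same order, and the cAMP response element TGACGTCA in 2.27%, 2.29% and 3.16%. The E-box CACGTG was in 37 of 309 windows of higher genes, 16 of 262 of lower genes and 1124 of 11208 of all genes tested. The serum response element was in 3.24%, 2.29% and 1.39%, and the MEF2 site, both searched by name, in 3.56%, 2.67% and 1.88%. A window without a match says only that the letters are not in it.

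Among 36 tested heat shock and unfolded protein response genes, 5 rose and 2 fell (19.4% called, beside 4.98% of all genes). Hspb1, a small heat shock protein, was at 358, 364 and 345 CPM against 267, 261 and 266 CPM (log2 change 0.43 ± 0.06, adjusted p = 8.03e-05). Herpud1, of the endoplasmic reticulum, rose by 0.30. The endoplasmic reticulum chaperone gene Hspa5 was not called (0.19, adjusted p = 0.0799). Another small heat shock gene, Hspb8, was lower (log2 change -0.24, adjusted p = 0.0163), though not without culture 1 or 3 (adjusted p = 0.0906 and 0.0522).

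Contractile genes moved in both directions. Of 55 tested sarcomere genes 6 rose and 9 fell (27.3% called, median -0.07). Among the myosin heavy chains, the fast IIb, fast IIa and embryonic genes were lower and the slow one was higher. Myh4, the fast IIb heavy chain, was at 438, 361 and 279 CPM in the aldosterone cultures, against 707, 493 and 501 CPM in the vehicle cultures (log2 change -0.66 ± 0.07, adjusted p = 1.35e-06). Myh3, the embryonic heavy chain, was at 3888, 3372 and 3343 CPM against 5236, 4737 and 4984 CPM (log2 change -0.50 ± 0.07, adjusted p = 5.79e-05). Myh7, the slow heavy chain, averaged 2739 ± 389.7 CPM with aldosterone and 1929.6 ± 125 CPM with vehicle (SD, n = 3 each) and rose by 0.50 (adjusted p = 1.88e-04 in edgeR). None of these 3 genes overlapped between groups. Myh2, the fast IIa chain, was lower (-0.28, adjusted p = 0.00496; 0.0866 without culture 3), and Myh1 and the neonatal Myh8 were not called (0.05 and -0.19, adjusted p = 0.742 and 0.176). By FPKM, which allows levels of different genes to be set side by side, Myh8 (656), Myh3 (626), Myh7 (341), Myh1 (189), Myh4 (64.1) and Myh2 (11.1) was the order with aldosterone. With vehicle Myh3 (887) and Myh8 (750.0) led, before Myh7 (241), Myh1 (183), Myh4 (102) and Myh2 (13.6). Myh1, Myh2, Myh7 and Myh8 were named after their values were seen, to complete the family.

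Other sarcomere genes also changed. Mybpc1, the slow-type myosin-binding protein C, was at 3052, 3468 and 2976 CPM against 2309, 2015 and 2061 CPM (log2 change 0.57 ± 0.07, adjusted p = 1.49e-05). Myoz2, a Z-disc protein of slow fibres, rose by 0.44. Tpm3, the slow tropomyosin, rose by 0.50, and Xirp2, an actin-binding protein of intercalated discs and myotendinous junctions, by 0.42. Mybpc2, the fast-type myosin-binding protein C, rose by 0.42, and Mybph, a related protein, fell by 0.35 on the log2 scale. These 4 genes were named after their values were seen and kept the call without any culture. Myom3, an M-band protein, was at 417, 376 and 364 CPM against 568, 491 and 503 CPM (log2 change -0.43 ± 0.06, adjusted p = 5.55e-05). The giant thin-filament gene Neb and the embryonic light chain gene Myl4 changed by -0.28 and -0.29 (adjusted p = 0.0240 and 0.0115), not past the threshold without culture 3 (adjusted p = 0.174 and 0.172), nor Neb without culture 1 (0.290). The split of the list depended on the cultures: under library totals alone it was 6 higher and 11 lower, with 7 higher and 6 lower without culture 1, 6 and 17 without culture 2, and 6 and 4 without culture 3.

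Of 36 tested genes of excitation-contraction coupling and calcium handling, 1 rose and 4 fell (13.9% called, beside 4.98% of all genes, median -0.05). The pumps that return calcium to the sarcoplasmic reticulum changed in opposite directions. Atp2a1, the fast-fibre pump SERCA1, was at 1669, 1492 and 1369 CPM with aldosterone and 1165, 849 and 829.8 CPM with vehicle (log2 change 0.68 ± 0.07, adjusted p = 1.01e-06). Atp2a2, the slow-fibre and cardiac pump, was at 1063, 899.8 and 924 CPM against 1278, 1063 and 1076 CPM (log2 change -0.24 ± 0.06, adjusted p = 0.0179), and was not called without culture 1 or 3 (adjusted p = 0.139 and 0.0705). The kinase gene Camk2b fell by 0.33 on the log2 scale (adjusted p = 5.68e-04). Casq1, the fast-type calcium store protein, was at 532, 499.8 and 359 CPM against 671, 563 and 549 CPM (log2 change -0.37 ± 0.07, adjusted p = 0.00124; 0.0517 without culture 3). The slow-type genes Myh7, Mybpc1 and Tpm3 were thus higher in the same cultures as the fast-type Atp2a1, and the fast-type Myh4 and Casq1 were lower in the same cultures as the slow-type Atp2a2. The release channel gene Ryr1 and its voltage sensor Cacna1s were not called (0.02 and 0.13, adjusted p = 0.941 and 0.251). Library totals alone called 7 of this list lower, and the fit without culture 3 called 1.

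**Figure D3:**
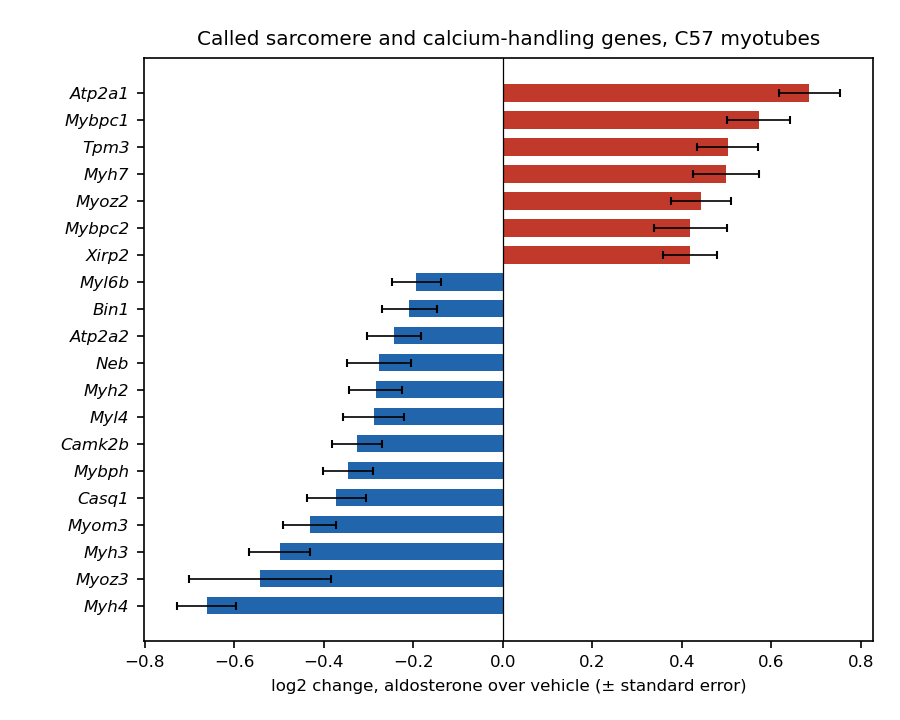
Log2 change (aldosterone over vehicle, C57 myotubes) ± standard error of the 20 called genes among sarcomere and calcium-handling lists; bars start at 0. Atp2a1, Mybpc1, Tpm3 and Myh7 are the highest and Myh4, Myoz3, Myh3 and Myom3 the lowest. Myoz3, named after its value was seen, was not called without culture 1 or 3 (adjusted p = 0.320 and 0.172 in edgeR).

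Of 22 genes of stretch and Z-disc signalling, 6 rose and 1 fell (31.8% called). The list was written with earlier results known, so this share is not independent of these data. It counts Ankrd2 and Myoz2, given above. It also counts Map2, the largest increase given above, which is a microtubule-associated protein and not a stretch or Z-disc gene by that description. It also holds Fhl1, a LIM protein of the sarcomere, at 1636, 2362 and 1890.0 CPM with aldosterone and 1232, 1274 and 1239 CPM with vehicle (log2 change 0.64 ± 0.07, adjusted p = 1.91e-05). The vehicle cultures agreed closely for Fhl1 and every aldosterone culture was above them. Ankrd1, a paralog of Ankrd2, and Pdlim5, a Z-disc adaptor, rose by 0.31 and 0.36 (named after their values were seen), both called without any culture too. At the neuromuscular junction 1 of 21 genes rose and 3 fell. Ache, acetylcholinesterase, was at 163, 95.5 and 107 CPM against 116, 75.1 and 86.4 CPM (log2 change 0.38 ± 0.06, adjusted p = 2.97e-04). Culture 1 was high in both groups, so the groups overlapped although all 3 pairs rose. Chrng, the embryonic subunit of the acetylcholine receptor, fell by 0.33 on the log2 scale (adjusted p = 7.69e-04). The adult subunit gene Chrne and the receptor gene Erbb3 changed by -0.69 and -0.23, and neither was called without culture 1 (adjusted p = 0.0571 and 0.0572), 2 (0.131 and 0.221) or 3 (0.123 and 0.0519).

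Dmd, which encodes dystrophin, the membrane anchor that is lost in mdx mice, was at 449, 462 and 401 CPM against 415, 331 and 355 CPM (log2 change 0.26 ± 0.06, adjusted p = 0.0180). It was not called without culture 2 or 3 (adjusted p = 0.197 and 0.0557). Of the 25 genes of the dystrophin complex and its neighbours 3 rose and 1 fell (16% called, beside 4.98% of all genes). Capn3, a muscle calpain, was the lower one, at 5.46, 4.77 and 6.00 CPM against 11.5, 7.33 and 9.49 CPM (log2 change -0.78 ± 0.14, adjusted p = 7.50e-04). The ankyrin genes Ank2 and Ank3 changed by 0.33 and 0.25 and lost the call without culture 1 (Ank2, adjusted p = 0.0901) or culture 3 (Ank3, 0.0913). In muscle atrophy 1 of 28 genes rose and 1 fell (7.14% called, beside 4.98% of all genes). The ubiquitin ligases Trim63 and Fbxo32, which mark atrophy and respond to glucocorticoids in muscle, were not called: log2 changes were -0.04 ± 0.06 and -0.01 ± 0.07 (adjusted p = 0.787 and 0.959). Another ligase subunit gene, Fbxo40, fell by 0.35 on the log2 scale (adjusted p = 3.86e-04). Among 30 myogenic regulators and fusion genes (3.33% called, beside 4.98% of all genes), Myf5 was the only call (0.28, adjusted p = 0.0149). Myf5 was not called without culture 1 or 2 (adjusted p = 0.0732 and 0.155).

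By its title the series looks for signals that pass from aldosterone-treated myotubes to fibroblasts, so genes for secreted proteins were counted as a list. Of 74 tested growth factors, cytokines and other secreted factors, 11 rose and 6 fell (23.0% called, median 0.08), and 9 rose and 7 fell under library totals alone. Spp1, which encodes the matrix cytokine osteopontin, was at 1089, 979 and 1157 CPM with aldosterone and 1339, 1373 and 1623 CPM with vehicle, all 3 aldosterone values below all 3 vehicle values (log2 change -0.42 ± 0.06, adjusted p = 1.21e-04). Spp1 is also made by macrophages, whose markers were lower with aldosterone in sum in each of the 3 pairs; their part in this change was not tested. Igfbp5, which binds insulin-like growth factors, was at 1183, 883 and 869 CPM against 1769, 1188 and 1289 CPM (log2 change -0.53 ± 0.06, adjusted p = 6.50e-06). Cxcl10, an interferon-induced chemokine, was at 6.26, 1.89 and 2.37 CPM against 1.96, 0.606 and 0.751 CPM, highest in culture 1 in both groups (log2 change 1.65 ± 0.22, adjusted p = 4.33e-05). Ccl2, the monocyte-attracting chemokine, was at 10.3, 10.6 and 8.88 CPM against 4.22, 6.50 and 5.80 CPM (log2 change 0.86 ± 0.13, adjusted p = 2.13e-04), without overlap. Csf1, the macrophage growth factor, was at 293, 324 and 412 CPM against 202, 269 and 309.7 CPM (log2 change 0.41 ± 0.06, adjusted p = 2.85e-04). Both rose in 3 of 3 pairs, and both were named after their values were seen. Gpx3 and Lcn2, given above, belong to this list too.

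Apart from Igf2 and Dkk3, given below, the remaining called genes of the secreted list, also named after their values were seen, each lost the call without at least 1 culture. Ostn, the muscle factor musclin, changed by 1.00 (adjusted p = 0.00323; 0.0713 without culture 1), and Ccn1, a matricellular protein, by 0.41 (0.00359; 0.0705 without culture 3). Vegfd, a lymphatic growth factor, changed by 0.72 (0.0125; 0.252 without culture 2 and 0.0678 without culture 3). Bdnf, a neurotrophin, and Hbegf, an EGF receptor ligand, changed by 0.38 and 0.22 (0.0160 and 0.0431), with 0.178 and 0.353 without culture 1 and 0.115 and 0.217 without culture 3. Below vehicle were Igfbp6, Metrnl and Ccn3, with log2 changes of -0.49, -0.37 and -1.27 (0.0168, 0.0242 and 0.0264). Without culture 1 their adjusted p was 0.126, 0.159 and 0.180, and without culture 2 it was 0.133, 0.0988 and 0.252. Tgfb1, Fgf2 and Il6, known signals to fibroblasts, were not called (log2 changes 0.09 ± 0.08, 0.10 ± 0.15 and 0.58 ± 0.48, adjusted p = 0.592, 0.793 and 0.582).

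In the matrix list of 62 tested genes 3 rose and 6 fell (14.5% called, beside 4.98% of all genes). The fibrillar collagens Col1a1 and Col3a1 were not called (log2 changes 0.04 ± 0.25 and -0.57 ± 0.23, adjusted p = 0.961 and 0.313). Col19a1, a collagen made in developing muscle, was at 78.7, 42.5 and 64.4 CPM with aldosterone and 33.3, 23.7 and 26.8 CPM with vehicle, without overlap (log2 change 1.11 ± 0.08, adjusted p = 3.47e-08). Col5a3 changed by -0.51 (adjusted p = 0.00486; 0.0641 without culture 2) and the cross-linking enzyme gene Loxl1 by -0.28 (adjusted p = 0.0116; 0.0779 without culture 2). Fbn2, a fibrillin, changed by -0.63 (adjusted p = 0.0128; 0.0640 without culture 2 and 0.126 without culture 3). The direction of this list turned with culture 2: without it 8 genes were higher and 1 lower, with a median of 0.06 in place of -0.08. Fibroblast markers summed to 785 CPM with aldosterone against 1075 CPM with vehicle in culture 2, and to more with aldosterone than with vehicle in cultures 1 and 3. Of the 12 fibroblast markers tested, 4 had a change above 0 (median -0.27), and 1 was called, Thy1 (log2 change -1.12, adjusted p = 0.0166; 0.256 without culture 3). The sums are made up mostly of Col1a1, Gsn and Col3a1. Col3a1 was at 70.00, 161 and 106 CPM with aldosterone and 90.9, 299.7 and 143 CPM with vehicle, lower in each pair. The part of fibroblast RNA in the matrix result was not tested.

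Of 47 genes of TGF-beta and BMP signalling 4 rose and 5 fell (19.1% called, beside 4.98% of all genes, median 0.04). Tgfb3, a ligand, was at 199, 191 and 199.6 CPM against 253, 256 and 246 CPM (log2 change -0.36 ± 0.06, adjusted p = 2.40e-04). Chrd, the BMP antagonist chordin, was at 22.5, 24.98 and 24.1 CPM against 39.7, 33.9 and 32.1 CPM (log2 change -0.56 ± 0.09, adjusted p = 2.58e-04). Gdf11, a ligand close to myostatin, changed by -0.48 (adjusted p = 0.00132), each of these 3 without overlap. Fst, the activin antagonist follistatin, changed by -0.29 (adjusted p = 0.00277; 0.0779 without culture 1). The matricellular gene Ccn2 was not called (log2 change 0.35, adjusted p = 0.0805). The list's 4 higher genes became 0, 9 and 0 without culture 1, 2 and 3, and 1 under library totals alone, where the median was -0.01. Of 38 Wnt and Notch genes 0 rose and 2 fell (5.26% called, beside 4.98% of all genes), Dkk3 and Wnt11 (log2 changes -0.58 and -0.27). Neither was called without culture 2 or 3 (Dkk3, adjusted p = 0.0847 and 0.147; Wnt11, 0.173 and 0.159), nor was Wnt11 without culture 1 (0.112).

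Several non-coding RNAs of imprinted loci rose. In the list of imprinted growth-control genes, 7 of 22 rose and 1 fell (36.4% called). Rian, Meg3 and Mirg lie on the plus strand of chromosome 12 in 1 cluster, at chr12:109570242-109628150, chr12:109506879-109538165 and chr12:109696198-109715894 on mm39, the build of the deposited table. Rian was at 386, 287 and 357 CPM in the aldosterone cultures, against 209.9, 177 and 215 CPM in the vehicle cultures (log2 change 0.77 ± 0.06, adjusted p = 1.33e-08). Mirg was at 12.6, 9.51 and 11.8 CPM against 6.36, 5.90 and 7.51 CPM (log2 change 0.78 ± 0.12, adjusted p = 2.15e-04). Meg3 was at 103, 130.4 and 149 CPM against 86.6, 92.5 and 109.9 CPM (log2 change 0.39 ± 0.06, adjusted p = 1.96e-04). All 3 rose in 3 of 3 pairs, Rian and Mirg by more than Meg3, for which the groups overlapped. The coding genes of the same cluster, Dlk1 and Rtl1, were not called, with adjusted p = 0.0612 and 0.0571 (log2 changes 1.59 ± 0.28 and 1.00 ± 0.30). On chromosome 7, H19 was the most abundant called gene, at 34422, 33164 and 33181 CPM with aldosterone and 28104, 24351 and 25101 CPM with vehicle (log2 change 0.38 ± 0.08, adjusted p = 0.00298). It made up 3.36% of scaled counts with aldosterone and 2.59% with vehicle. Grb10, an adaptor that restrains insulin signalling, rose by 0.34 (adjusted p = 4.18e-04). Igf2, the neighbour of H19, rose by 0.44 (adjusted p = 0.0157; 0.235 without culture 2 and 0.0531 without culture 3; named after its value was seen). Among other non-coding genes, 5730419F03Rik, 1600020E01Rik and Dnm3os fell, with log2 changes of -0.95, -0.84 and -0.81. The libraries do not mark strand, so reads of these genes and of overlapping transcripts cannot be told apart.

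None of the 42 tested nuclear genes of oxidative phosphorylation and none of the 13 mitochondrially encoded genes was called in edgeR (medians 0.01 and 0.14), and 3 and 0 had an unadjusted p below 0.05. Both medians turned without culture 2, to -0.05 with 4 lower and to -0.12 with 1 lower. The nuclear median was also -0.04 under library totals alone, and without culture 3 it was 0.07 with 1 higher. Of 42 glycolysis and glycogen entries 2 rose and 1 fell (7.14% called, beside 4.98% of all genes). The branching enzyme gene Gbe1 rose by 0.35 (adjusted p = 0.00203), while the lactate transporter gene Slc16a1 (0.24) was not called without culture 2 or 3 (adjusted p = 0.0721 and 0.162). In fatty acid use 2 of 33 rose and 4 fell (18.2% called, beside 4.98% of all genes). Pnpla2, the main triglyceride lipase, was at 156, 125 and 129 CPM against 113, 96.5 and 101 CPM (log2 change 0.40 ± 0.06, adjusted p = 2.86e-04). Ucp2, a mitochondrial carrier, was at 18.5, 24.7 and 21.2 CPM against 25.2, 41.00 and 33.5 CPM (log2 change -0.62 ± 0.08, adjusted p = 4.51e-05). Lpl, lipoprotein lipase, was at 19.6, 52.6 and 44.4 CPM against 30.1, 68.3 and 69.4 CPM (log2 change -0.54 ± 0.08, adjusted p = 1.88e-04). Acsl6 changed by -0.39 (adjusted p = 0.00201; 0.0571 without culture 1). Of 33 genes of cholesterol and fatty acid synthesis 1 was called (3.03%, beside 4.98% of all genes). It was Dhcr7, the last enzyme of cholesterol synthesis, at 58.2, 49.9 and 54.7 CPM against 82.3, 75.3 and 76.01 CPM (log2 change -0.52 ± 0.06, adjusted p = 6.09e-06).

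Of 37 genes in the antioxidant list, 5 rose and 1 fell (16.2% called, beside 4.98% of all genes). The list does not hold antioxidant genes alone. Besides Gpx3 the 5 include Nox4, an NADPH oxidase that makes the oxidant hydrogen peroxide. Nox4 was at 9.96, 13.7 and 13.3 CPM with aldosterone and 4.27, 6.95 and 7.72 CPM with vehicle, without overlap (log2 change 0.99 ± 0.12, adjusted p = 1.19e-05). The glutathione transferase genes Gstm1 and Gstm2 rose by 0.41 and 0.47; they are close paralogs whose reads the counting could divide wrongly. In retinoic acid metabolism 3 of 19 rose and 2 fell (26.3% called, beside 4.98% of all genes). Aldh1a1 rose, and Dhrs3, which reduces retinaldehyde, fell by 0.29 on the log2 scale (adjusted p = 0.00646). The retinoic acid-degrading enzyme gene Cyp26b1 (0.47, adjusted p = 0.00790) was not called without culture 1 (adjusted p = 0.104) or culture 3 (0.0705). Of 13 prostaglandin genes Ptgs2 and Hpgd were called (15.4%, beside 4.98% of all genes). Ptgs2, the inducible cyclooxygenase, was at 50.2, 75.3 and 81.7 CPM against 30.7, 57.8 and 64.9 CPM (log2 change 0.47 ± 0.07, adjusted p = 1.18e-04). Hpgd, which breaks prostaglandins down, changed by 0.79 (adjusted p = 0.00300; 0.0660 without culture 2 and 0.0624 without culture 3). Of 24 interferon-stimulated genes 8.33% were called, beside 4.98% of all genes. Cxcl10 and Ifit1 rose (Ifit1 by 1.17, adjusted p = 0.00215).

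In the cell cycle list 1 of 40 was called (2.50%, beside 4.98% of all genes), Mcm4 (0.31, adjusted p = 0.0495), and it was not called without culture 1 or 3 (adjusted p = 0.284 and 0.189). Of 53 cytosolic ribosomal protein genes 49 had a change above 0, with a median of 0.12, and 2 were called (3.77%), Rps4x (0.25) and Rplp2 (0.19). Neither was called without culture 1 (adjusted p = 0.0604 and 0.306) or 2 (0.170 and 0.0713), nor Rplp2 without culture 3 (0.0787), and the median was 0.04 without culture 2. The elongation factor gene Eef1a1, at 7602, 9474 and 6982 CPM against 6616, 6671 and 6581 CPM, showed the same dependence: its aldosterone value was high in culture 2, and its adjusted p was 0.0416 with all 3 cultures, 0.258 without culture 2 and 0.124 without culture 1. Genes of this kind have processed pseudogenes, and 8 processed pseudogenes were called higher and 0 lower. The number tested was not counted, so their share cannot be set beside that of all genes. Any link to the genes above was not tested.

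**Figure D4:**
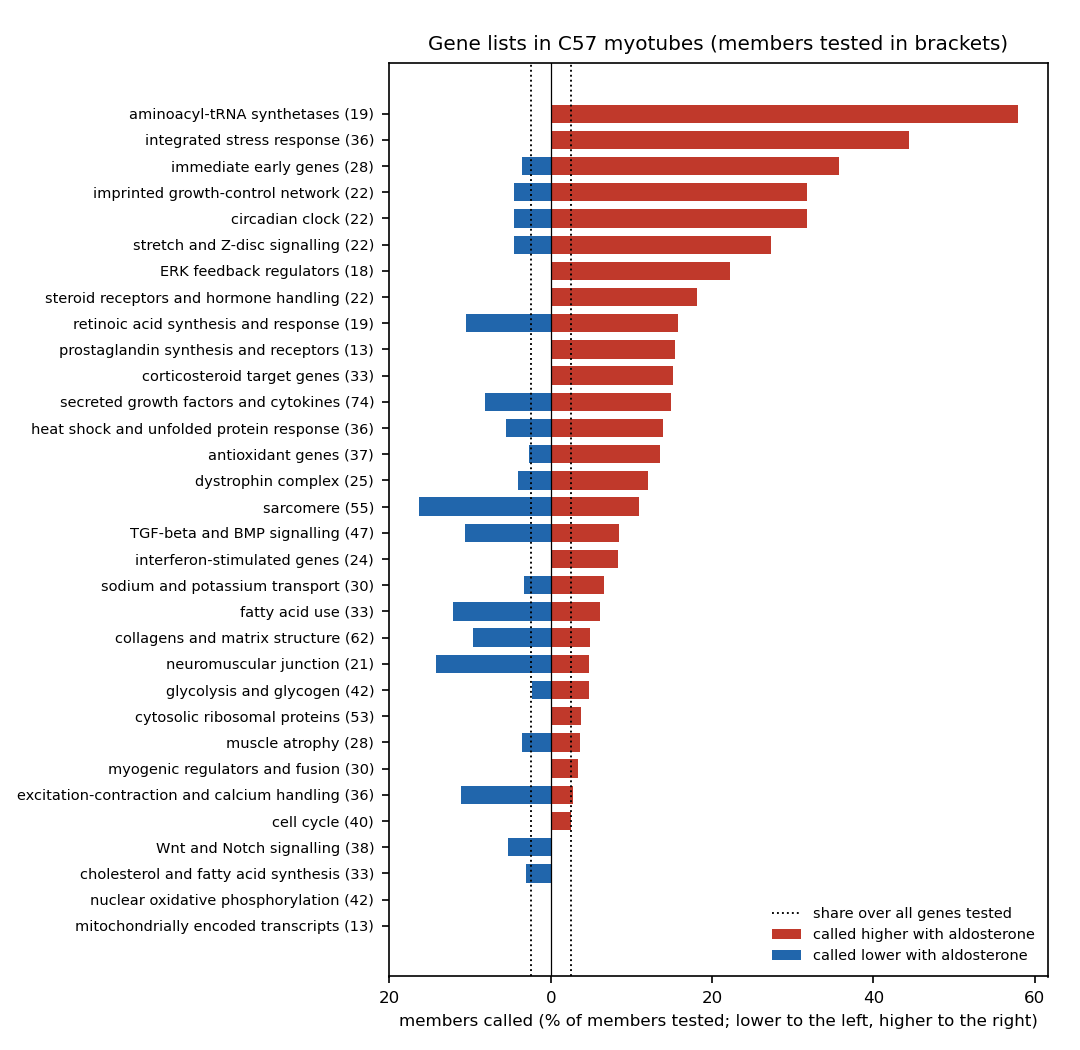
Share of tested members called lower (blue, to the left) and higher (red, to the right) with aldosterone in each of 32 gene lists, as % of members tested. Dotted lines mark 2.46% lower and 2.52% higher over all 15763 genes; the synthetase, integrated stress response and immediate early gene lists reach furthest to the right.

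The mdx myotubes, from mice of the same background with a mutated dystrophin gene, received the same treatments and are the libraries closest to these. They share no library with the C57 comparison, though both entered 1 fit. In mdx 367 of 15763 genes passed (2.33%). Of the 397 genes higher in C57, 374 (94.2%) also had a change above 0 in mdx, where 51.7% of all genes did, and 362 of the 388 lower genes (93.3%) had one below 0. The median mdx change of these genes was 0.18 for the higher and -0.27 for the lower genes, beside 0.32 and -0.41 in C57, where the genes were chosen for passing. Genes called in both the same way numbered 244, which is 31.1% of the C57 calls and 66.5% of the mdx calls; 2 genes were called in opposite directions. Map2 changed by 1.88 in C57 and 1.36 in mdx, Folh1 by 1.59 and 1.32, Rian by 0.77 and 0.79, and Gpx3 by 0.75 and 0.78.

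The difference between the genotypes passed the test for 7 genes (0.0444% of those tested), and 835 had an unadjusted p below 0.05. Ptgs2 was more positive in C57: 0.47 against -0.10 in mdx (difference 0.56, adjusted p = 0.0227). Lpl was lower in C57 and higher in mdx, where it was at 6.92, 20.6 and 26.8 CPM with aldosterone and 3.89, 12.6 and 21.8 CPM with vehicle (difference -1.10, adjusted p = 3.85e-04). The other 5 were Tyrobp, C1qc, Csf1r, Hcls1 and Vav1, genes of macrophages and other leukocytes, whose C57 changes ran between -0.57 and -0.25 while their mdx changes ran between 1.51 and 3.88. In C57, Tyrobp alone of these 5 was called (adjusted p = 0.0378). The 15 leukocyte markers summed in mdx to 6.98, 222 and 14.7 CPM with aldosterone and to 6.99, 46.2 and 18.9 CPM with vehicle in cultures 1, 2 and 3. That sum was higher with aldosterone in mdx culture 2 and not in cultures 1 and 3. Without mdx culture 2 the difference passed for 2 genes; the part of leukocyte RNA in it was not tested. No gene of the synthetase, integrated stress response, immediate early or clock lists was among the 7. With 0.0444% of all genes passing, lists this short would rarely hold one, so their absence does not tell whether they differ between genotypes.

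**Figure D5:**
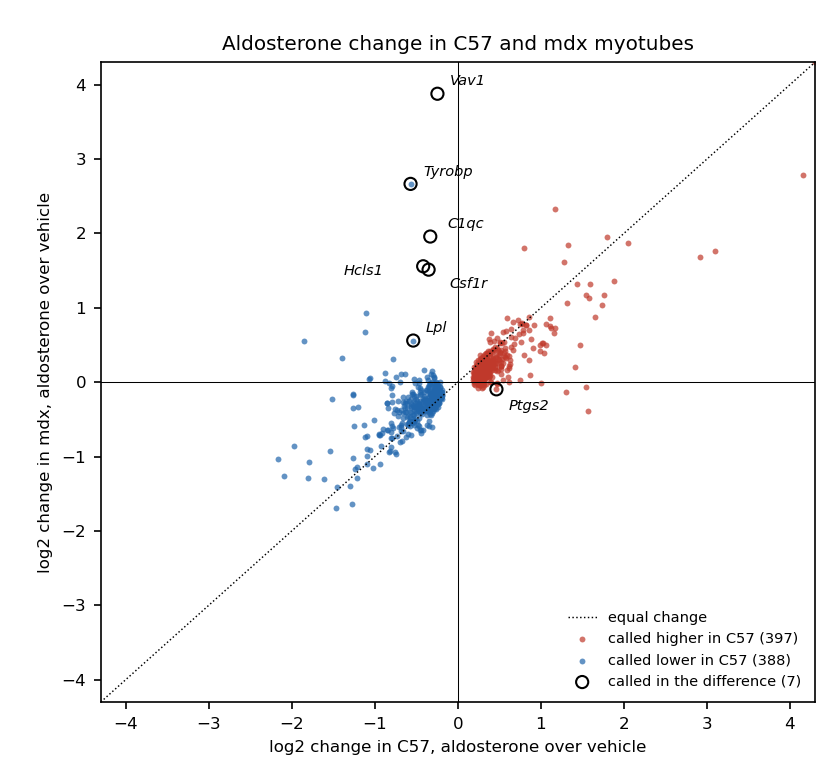
Log2 change with aldosterone in mdx (vertical) against that in C57 (horizontal) for the genes called in C57, red higher and blue lower, with the 7 genes called in the difference circled; values beyond 4.3 are drawn at the edge. Most points lie in the upper right and lower left, the 374 and 362 genes of like sign, and 6 circled genes lie above the line of equal change.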

How the data were processed

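Poly(A) RNA was sequenced from non-directional libraries, per the labels' protocols, so antisense and overlapping genes cannot be told apart. The authors deposited integer counts per gene, made with featureCounts 1.5.0-p3 on mm39, per the submitters' processing notes. For the aligner and annotation, nothing is given in the sources used here. The FPKM values they deposited in a separate table were proportional to count over gene length in each C57 library and were used only to set levels of different genes side by side. Gene IDs and names were taken from the deposited table.

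Counts of the 12 myotube libraries (C57 and mdx) were fitted together in edgeR 4.0.16 (R 4.3.3): TMM scaling, filterByExpr, a robust quasi-likelihood fit, 1 aldosterone term per genotype and culture number within genotype as a block. Of 56748 genes, 15763 were tested, and genes at a Benjamini-Hochberg adjusted p below 0.05 were called. The block was taken because deviations from the group means correlated between same-numbered C57 libraries (r = 0.726, 0.512 and 0.381, across genes) and were highest for the same number, though aldosterone library 3 correlated nearly as well with vehicle library 2 (r = 0.344) and aldosterone library 2 with vehicle library 3 at 0.233. The labels do not say what a number marks. Standard errors are the log2 change divided by the square root of the F statistic, an approximation. SDs are over 3 libraries per group. Alternatives were the fit with no block, C57 libraries alone, RLE scaling, library totals, DESeq2 1.42.0, limma 3.58.1 voom, other filters, and each culture left out; the list counts without a culture were added after seeing the data.

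Genes were named by rule: the 12 largest increases and decreases among called protein-coding genes with at least 5 CPM in a group and 3 of 3 pairs agreeing, in each list at most 4 called genes by adjusted p, the 6 most abundant called genes, the 6 called non-coding genes with the largest change, genes called in the difference, and a fixed set of receptors, targets and muscle genes. Other names are marked as chosen after their values were seen, or are uncalled members of a list. The comparison, the lists and the tests were all chosen with earlier results of these data known. Promoter windows are from RefSeq on GRCm38.p6, another build than that of the counts, and were matched by gene name: 571 called genes had one. Some genes are not reported here.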

Additional observations from a re-analysis of the deposited data

Results flagged for a closer look

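The aldosterone effect differed between C57 and mdx myotubes for 7 genes in edgeR's test of the difference itself, adjusted over all genes tested. The difference in log2 change, C57 minus mdx, was -1.10 for Lpl (adjusted p = 3.85e-04), with -0.54 in C57 and 0.56 in mdx. It stayed called under every alternative but the fit with no block, leaving out each culture of either genotype included. For Ptgs2 it was 0.56 (adjusted p = 0.0227), which was 0.0629 without C57 culture 1, 0.0984 without mdx culture 1, 0.243 without mdx culture 2, 0.119 under library totals alone and above 0.05 with no block. The Ptgs2 difference itself lay between 0.45 and 0.63 in all of these fits.

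The other 5 are genes of myeloid and other leukocytes. The difference was -3.24 for Tyrobp (adjusted p = 3.85e-04), -2.29 for C1qc (0.00685), -1.86 for Csf1r (0.0449), -1.98 for Hcls1 (0.0416) and -4.12 for Vav1 (0.0499). Tyrobp kept its call under every alternative but the fit with no block and that without mdx culture 2. C1qc, Csf1r, Hcls1 and Vav1 were not called by DESeq2, nor without C57 culture 3 (adjusted p = 0.156, 0.162, 0.162 and 0.162 in edgeR). Csf1r, Hcls1 and Vav1 were also not called by voom (adjusted p = 0.0936, 0.0998 and 0.121), nor without C57 culture 2. None of the 5 was called without mdx culture 2, where the difference was -2.60 for Tyrobp, -0.59 for C1qc, -0.51 for Csf1r, -1.93 for Hcls1 and -4.56 for Vav1. The difference was thus closer to 0 for Tyrobp, C1qc and Csf1r and about as large for Hcls1 and Vav1. In that culture the 15 leukocyte markers summed to 222 CPM with aldosterone and 46.2 CPM with vehicle. C57 levels of Tyrobp were 0.451, 11.3 and 6.13 CPM with aldosterone and 0.566, 15.7 and 10.2 CPM with vehicle, and mdx levels were 0, 5.63 and 0.339 CPM with aldosterone and 0, 0.842 and 0.0710 CPM with vehicle, for cultures 1, 2 and 3.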

How the results depend on the processing

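The count of calls depended most on pairing the cultures. With no replicate block 2 genes were called, 2 higher and 0 lower, and the difference between genotypes was called for 0; DESeq2 with no block called 57, and with any 1 library left out the unpaired edgeR fit called 0. Within the paired design, DESeq2 called 466 genes, 236 higher and 230 lower, and 4 in the difference. The C57 libraries alone gave 233 higher genes, and library totals alone 197. Without the low-count filter the difference was called for 54 genes. Leaving out 1 culture gave 401 to 857 calls (204 to 431 higher, 179 to 426 lower), and 2 to 23 in the difference. The cause of these shifts was not tested. Calls shared with the same sign were 762 under RLE scaling, 764 with voom, 582 under library totals, 523 with C57 alone, 445 with DESeq2, and 387, 508 and 359 without culture 1, 2 and 3. Every called gene that could be tested kept its sign in all of these fits. The fits reuse the libraries by which the genes were chosen, so the kept sign follows largely from that choice. The C57 change of Vav1, not called, lay between -0.37 without culture 3 and 0.043 without culture 2, where its sign turned.

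The main limits are 3 cultures per group, 1 concentration and 1 time point after washout, and mixed cultures whose leukocyte RNA differed widely between cultures. Genes below 1 CPM were called in 0.765% of cases, and small changes there were not detectable at this depth. A lone pair left out leaves 2 pairs, whose spread is shared with mdx.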
